A study of Mus musculus with 4 samples.

Results

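The genes described here carry a BTB domain, a protein fold through which proteins pair with themselves or with other proteins, and were chosen by name. Every gene whose symbol begins with Zbtb, Klhl, Kbtbd or Kctd followed by a digit was taken, whatever its values. The rule took 86 of the 9949 genes with an m6A peak in any list: 40 Zbtb, 25 Klhl, 6 Kbtbd and 15 Kctd genes. They held 487 of 46417 peaks. A pair of these genes is named for the strand opposite a Zbtb gene and does not encode a BTB protein: Zbtb8os, whose human counterpart is the tRNA ligation cofactor archease, and Zbtb11os1, the only one of the 86 that the lists do not class as protein-coding.

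The libraries were 2 Mettl5-/- (knockout 1 and 2) and 2 wild-type libraries (wild type 1 and 2) of mouse embryonic stem cells of strain C57BL/6N. Mettl5 is a methyltransferase that modifies an adenosine of ribosomal RNA, and m6A (N6-methyladenosine) is the mark that the antibody recognised in fragmented total RNA. The labels also describe differentiation protocols, name these samples as embryonic stem cells, and do not state if the pair of libraries of a genotype was made from independent cultures or clones. The error between them may therefore be technical. The wild-type libraries are titled differently (Ctr and WT), and both carry the genotype wild type.

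Zbtb proteins join the BTB domain to zinc fingers that bind DNA, and most that have been studied repress transcription. Klhl and Kbtbd proteins join it to kelch repeats: the BTB domain holds the scaffold CUL3 of a ubiquitin ligase and the kelch repeats hold the substrate. Kctd proteins carry a BTB domain related to that of potassium channels, and some of them also serve CUL3 while others bind receptors or G proteins. In messenger RNA, m6A is placed by another enzyme, the Mettl3 complex, mostly near stop codons, in 3' untranslated regions and in long internal exons, within a short consensus whose commonest form is GGAC.

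The knockout libraries 1 and 2 held 128 and 121 peaks in 76 and 72 of the BTB-family genes, and the wild-type libraries 1 and 2 held 122 and 116 peaks in 74 and 72 of them. The 4 lists held 12699, 10821, 11696 and 11201 peaks in the order knockout 1, knockout 2, wild type 1 and wild type 2. Read depth and the level of each transcript were not analysed here, so a transcript that is scarce, one that is unmarked and one below the reach of the sequencing cannot be told apart. In such bulk RNA, fewer cells of a type and less RNA per cell cannot be told apart either. Mettl5 had 0 peaks in the lists, so they hold no check of the deletion. Of 10 embryonic stem cell markers, 8 had a peak in all 4 lists, and Nanog and Zfp42 had none. For Pou5f1 and Dppa4 no single region was called in all 4 lists. Beside 57.1% of all genes with a peak, the marker list is too short to read a share from. The neural markers Sox1 and Nes also had peaks in all 4 lists, at percentiles of strength between 88.0 and 92.9. The part of other cell types in the results was not tested.

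Only 2 peaks of these genes reached the first transcribed bases for which a RefSeq sequence was at hand (GRCm38.p6, matching the mm10 coordinates of the peaks), and both were called in 1 knockout library each. They are shown because they are the letters under a called peak that could be read. The Kbtbd7 peak of knockout 2 began within the first 50 transcribed bases and covered the last 20 of them (chr14:79426541-79426560, plus strand), which ended in the m6A consensus, in capitals. The Zbtb38 peak of knockout 1 covered the first 50 transcribed bases, and the last 30 of them (chr9:96731626-96731655, minus strand) held no GGAC.
Kbtbd7: acagtgagtcagccggGGAC
Zbtb38: cgtgtcagtggtttgattttcagcaaatgt
GGAC was searched on the transcribed strand only. It was present in 7.64% of the 32851 RefSeq start windows over the last 20 of the first 50 transcribed bases, and in 11.7% over the last 30. Both peaks were weak: they had the authors' fold enrichments of 8.22 and 12.0 and lay at the 2.83 and 24.2 percentile of their lists.

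Strength is given throughout as the percentile of a peak's p-value within its own list, with 100 the strongest. A gene is represented by its best peak, and a peak is the authors' call in 1 library. Folds are the authors' values for a peak and are not compared between lists.

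Most of the BTB-family genes were called whether or not Mettl5 was present. Of the 86 genes, 62 (72.1%) had a peak in all 4 libraries, beside a background of 57.1% of all genes with a peak. The counts by family were 31 of 40 Zbtb, 17 of 25 Klhl, 5 of 6 Kbtbd and 9 of 15 Kctd genes. Peaks in 1 library only were the record of 9 genes (10.5%), beside 17.0% of all genes. RefSeq lists 111 symbols that fit the name rule, and 25 of them had no peak in the lists analysed: 2 of 42 Zbtb, 12 of 37 Klhl, 4 of 10 Kbtbd and 7 of 22 Kctd symbols. Klhl12, an adaptor for the coat protein Sec31a, and Kctd13, an adaptor for the GTPase RhoA, were among the 25. The share of all RefSeq symbols without a peak is not given here, so these counts cannot be read as many or few.

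**Figure D1:**
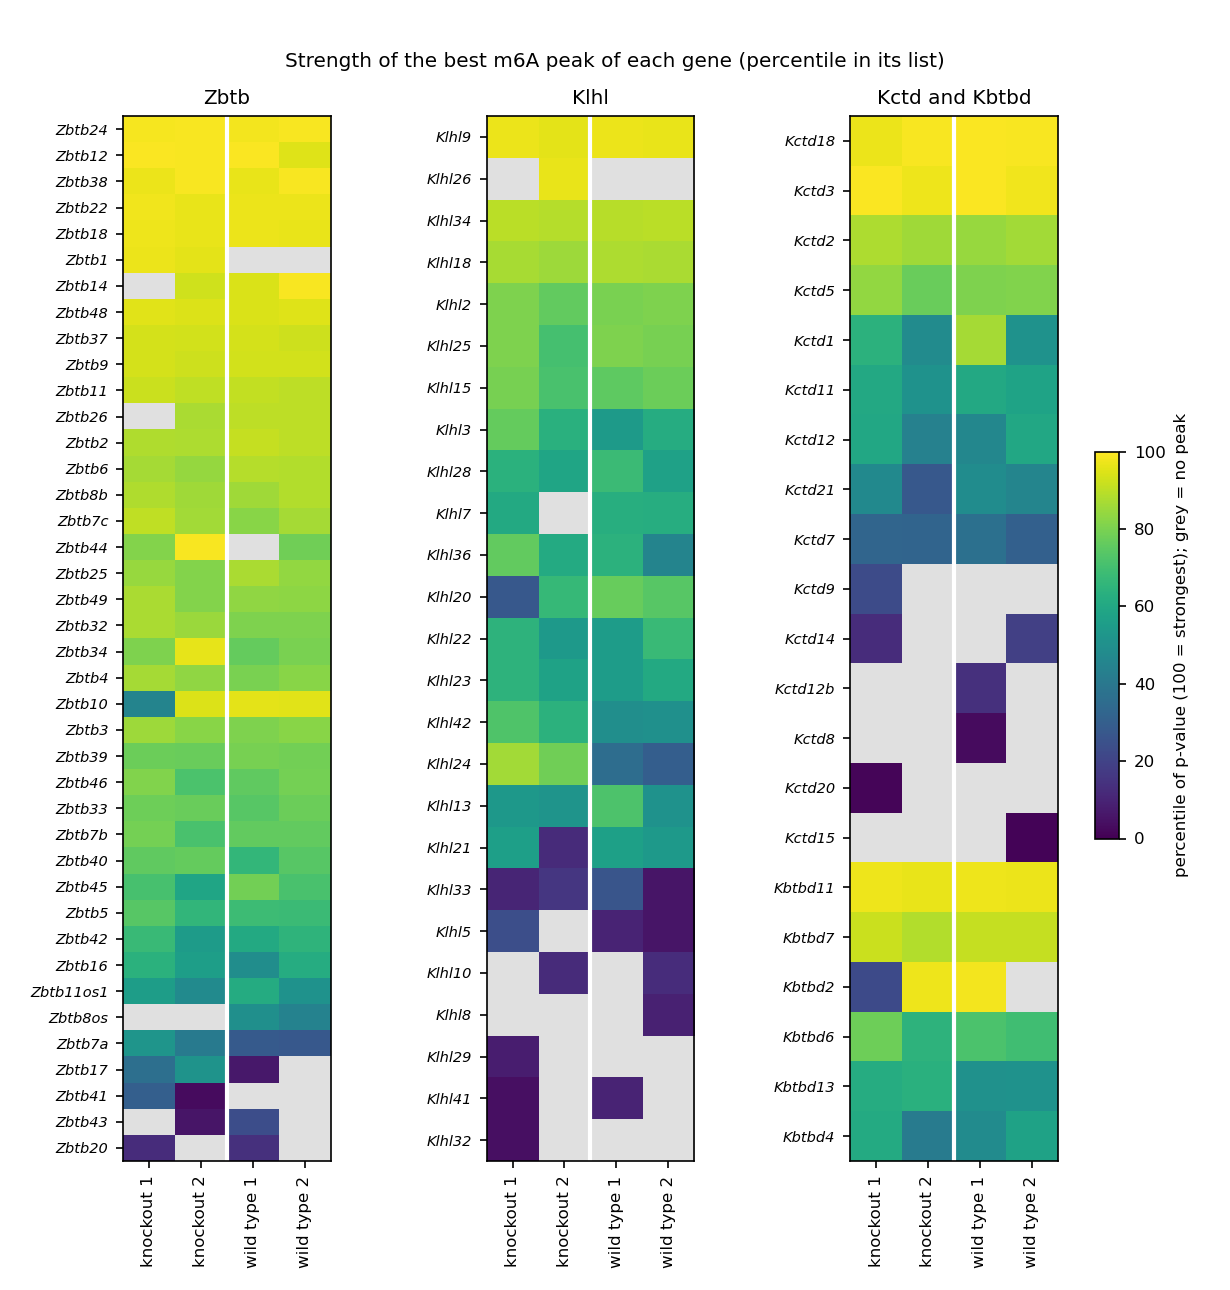
Heat map of the percentile of the best peak (colour, 0 to 100) for each of the 86 genes (rows, by family and strength) in knockout 1, knockout 2, wild type 1 and wild type 2 (columns); grey marks no peak. Zbtb rows are mostly strong and alike across columns, and Zbtb1 is grey in both wild-type columns. Many grey cells lie in Klhl and Kctd rows of low strength. Strong rows such as Zbtb14, Zbtb26, Zbtb44 and Klhl26 also hold grey cells.

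The genes were strong within each list, and the families differed. The median best percentile of the BTB-family genes was 77.6 and 77.2 in knockout 1 and 2 and 76.6 and 77.9 in wild type 1 and 2. Over all genes it was 59.9 and 59.1 in the knockout libraries and 59.6 and 59.1 in the wild-type libraries. Averaged over the 4 libraries, the median was 83.4 for Zbtb, 63.4 for Klhl, 74.3 for Kbtbd and 57.5 for Kctd genes, against 59.4 for all genes. Klhl genes thus lay slightly above all genes. Kctd medians were 60.2 and 51.1 in knockout 1 and 2 and 60.4 and 58.2 in wild type 1 and 2. They lay on both sides of the medians of all genes. A gene with more regions has more peaks to take the best from, and 55.8% of these genes had 2 or more, beside 39.2% of all genes. With the median peak of each gene the value for all BTB-family genes fell from 77.3 to 60.6, which was not computed over all genes. The difference from all genes was not tested, since the genes of a list are not replicates. The best peak was among the strongest 10% of a list for 21.1% and 27.8% of the BTB-family genes called in knockout 1 and 2, and for 25.7% and 22.2% of those called in wild type 1 and 2. Over all genes the share was 13.8% to 14%. For Klhl genes the share was 4.55% to 10.5% and for Kctd genes 16.7% to 22.2%, each resting on 1 or 2 genes a library.

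Strength went with the size of the peak. The median BTB-family peak covered 494 and 481 bp of exon in knockout 1 and 2 and 480 and 494 bp in wild type 1 and 2, against medians over all peaks of 331 and 359 bp in the knockout and 359 and 360 bp in the wild-type libraries. Over the BTB-family peaks of a list, Spearman's rho between percentile and length was 0.87 to 0.89, and between percentile and the authors' fold 0.92 to 0.97 (116 to 128 peaks a list). These points share a library, and a long peak gathers more reads than a short one at equal enrichment, so rho is given as a description only. Every peak lay in 1 exon block in 74 of the 86 genes, among them all Klhl and Kbtbd genes. By peak, 90.1% to 93.4% of BTB-family peaks lay in 1 block, near the 89% to 89.7% of all peaks.

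**Figure D2:**
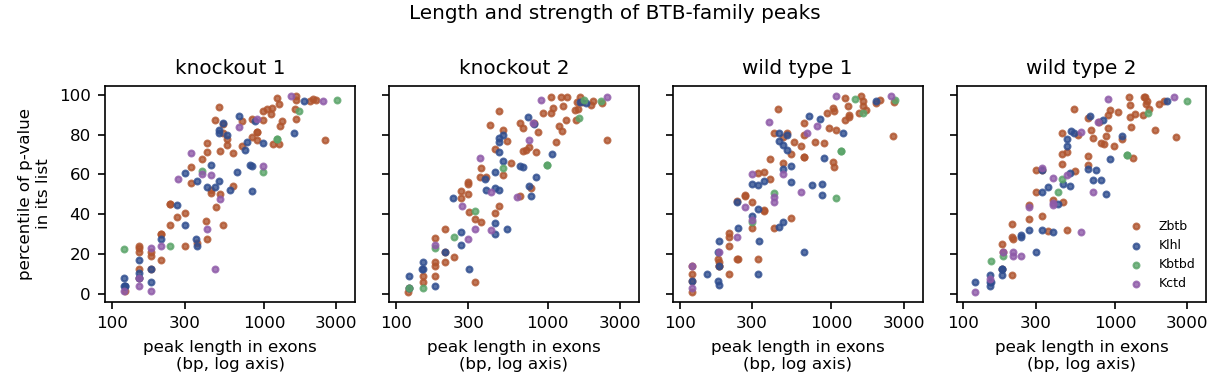
Length of each BTB-family peak in exons (bp, log axis) against its percentile of strength, one panel per library, coloured by family. In all 4 panels longer peaks rank higher (Spearman's rho 0.87 to 0.89), and the peaks at the top right are mostly Zbtb peaks.

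Families are described from the genes with the highest mean percentile among those called in all 4 libraries, an order that need not hold in each library. Among Zbtb genes these were Zbtb24, Zbtb12, Zbtb38 and Zbtb22. Zbtb24, mutated in a human immunodeficiency with loss of DNA methylation at centromeres, lay at the 98.6 and 99.1 percentile in knockout 1 and 2 and at 98.3 and 99.1 in wild type 1 and 2. Its best peak had the same ends in all 4 lists (chr10:41450413-41452199, plus strand, coding sequence, 2 exon blocks). Its folds were 751 and 454 in the knockout and 830 and 886 in the wild-type libraries. The genotypes overlapped in percentile.

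Zbtb38, which binds methylated DNA, had the most regions of any gene here, 5, where a region is a stretch of overlapping peaks of the 4 lists. Its best peaks were at 97.0 and 99.1 in the knockout and 96.5 and 99.1 in the wild-type libraries. They lay in the coding sequence within chr9:96684955-96688067 (minus strand). That stretch was cut differently in each list: as 2 peaks in knockout 1, the longer of them 2006 bp, and as 3 peaks in knockout 2, as 2 peaks in wild type 1, the longer of them 2605 bp, and as 3 peaks in wild type 2. A second coding region and a 3' untranslated region of Zbtb38 were also called in all 4 lists. The remaining regions, at the transcript start and in the 3' untranslated region, were called in knockout 1 only.

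Zbtb12 lay at 99.5 and 99.1 in the knockout and 99.4 and 95.2 in the wild-type libraries, and Zbtb22 at 97.8 and 96.8 in the knockout and 97.2 and 97.1 in the wild-type libraries. Both were marked by a single peak in the coding sequence in every list. Other Zbtb genes of known role were called at lower ranks. Zbtb7a, a repressor of fetal globin genes in humans, lay at 52.3 and 40.9 in the knockout and at 28.4 and 27.7 in the wild-type libraries, higher in both knockout libraries. Its 3' untranslated region chr10:81151650-81152100 held these peaks. For 2 libraries against 2, the smallest two-sided p of an exact permutation test is 0.333, so no such separation can pass a threshold of 0.05. Zbtb17, the Myc partner Miz1, had an exon region (chr4:141466453-141467125) at 36.5 and 18.6 in the knockout and at 6.25 in wild type 1, with no peak in wild type 2. A further exon region was called in knockout 2 alone, at 51.5.

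Zbtb1, a repressor needed for lymphocyte development, was the strongest gene here with peaks in both libraries of 1 genotype and none of the other. Its coding sequence (chr12:76385240-76387516, plus strand) held a peak at the 97.2 and 95.9 percentile in knockout 1 and 2, with folds of 413 and 362, and no peak in either wild-type library. The peaks were 2217 and 2277 bp long. The neighbouring gene on the opposite strand, Zbtb25, had a peak in every list, at 84.5 and 81.6 in the knockout and 87.4 and 83.7 in the wild-type libraries. The knockout peaks of Zbtb1 stayed under an adjusted p-value below 0.05, in lists of equal length, and in the stronger 50% of each list. These limits only remove peaks, so none of them could add a wild-type call, and they do not test the pattern. A wild-type transcript without the mark and a wild-type transcript too scarce to call cannot be told apart here.

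The other genes called by genotype were weak. Zbtb41 had a 3' untranslated peak (chr1:139447606-139447816) at 30.2 and 2.83 in knockout 1 and 2, with folds of 13.6 and 8.22, and none in the wild-type libraries. The same pair of p-value and fold was listed for 237 peaks of knockout 1 and 214 of knockout 2. Zbtb8os had a 3' untranslated peak (chr4:129346817-129347087) at 49.8 and 44.5 in wild type 1 and 2, with folds of 11.2 and 18.5, and none in the knockout libraries. Neither was left among the stronger 50% of each list. By count, 2 of 86 genes (2.33%) were called in both knockout libraries alone, beside 2.27% of all genes, and 1 of 86 (1.16%) in both wild-type libraries alone, beside 1.56%. Both shares were near the background and are no result about these genes.

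Counted by region, the 86 genes held 151 of 15487 regions: 75 Zbtb, 44 Klhl, 9 Kbtbd and 23 Kctd. At least 2 regions were found in 48 genes (55.8%), beside 39.2% of all genes. Of the 151 regions, 80 (53.0%) had a peak in all 4 libraries, beside 42.5% of all regions, and 37 (24.5%) in 1 library only, beside 28.3%. Regions with peaks in both knockout libraries alone numbered 5 (3.31%), beside 2.51%, and those with peaks in both wild-type libraries alone 4 (2.65%), beside 2.02%. Region sharing by genotype was therefore near the background in both directions.

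**Figure D3:**
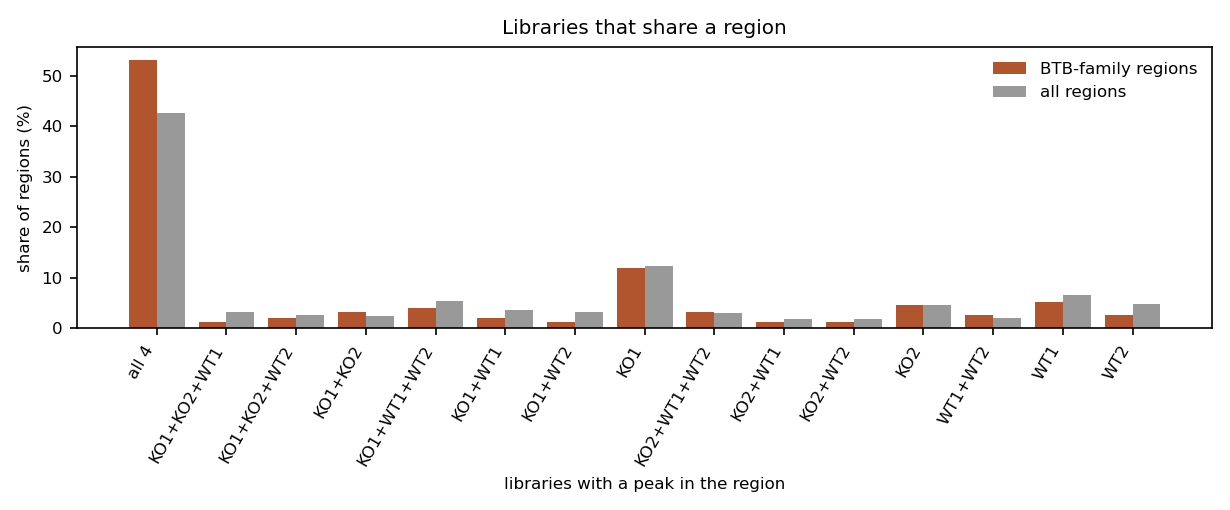
Share of regions (%, bars from 0) by the libraries that hold a peak in them, for the 151 BTB-family regions and all 15487 regions (KO1 and KO2, knockout 1 and 2; WT1 and WT2, wild type 1 and 2). The regions in all 4 libraries are 53.0% of the BTB-family and 42.5% of all regions, and the bars for both knockout or both wild-type libraries alone stand below 4%.

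Beside Zbtb1 and Zbtb41, the regions called in both knockout libraries alone were in Klhl24, Klhl42 and Kbtbd2, genes that also had a peak in a wild-type library. Klhl24, an adaptor whose human form is mutated in a skin fragility disorder, had a coding region (chr16:20107051-20107591, plus strand) at 86.0 and 78.3 in knockout 1 and 2, with folds of 384 and 197, and no peak there in wild type. Its 3' untranslated region was called in all 4 lists, at 51.4 and 32.4 in the knockout and 35.9 and 29.7 in the wild-type libraries. Klhl24 had the widest spread of best percentile among genes called in all 4 libraries, 56.3 points. Klhl42, an adaptor for the microtubule-severing protein katanin, had an exon region (chr6:147107710-147108519) at 72.4 and 64.4 in the knockout libraries and none in the wild type, beside other regions called in every list. Kbtbd2, an adaptor that controls a subunit of phosphoinositide kinase, had a weak 5' untranslated region (chr6:56797545-56797724) at 22.3 and 22.8 in the knockout libraries.

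The 4 regions called in both wild-type libraries alone were of middle or low rank. They were that of Zbtb8os, a coding region of Zbtb40 (chr4:136995291-136996053) at 42.1 and 46.1, a coding region of Klhl34 (chrX:157818643-157818822) at 6.25 and 12.6, and a 3' untranslated region of Kctd12 (chr14:102978939-102979159) at 2.94 and 21.1 in wild type 1 and 2. The wild type 1 peak of the Kctd12 region was listed for Gm26778 on the opposite strand. Joined on the same strand only, 3 such regions were counted.

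Strong peaks that were missing from some libraries mostly did not follow the genotype. Of the 26 regions with a peak in the strongest 10% of a list, 8 (30.8%) lacked a peak in at least 1 library, beside 30.3% of all 1548 such regions. Of the 8, only that of Zbtb1 followed the genotype. Knockout 1 lacked 7 of the 8 and knockout 2 none, while wild type 1 lacked 4 and wild type 2 lacked 5. Over all such regions of the lists, 63.3% were missing in knockout 1 and 34.3% in knockout 2, and 43.9% in wild type 1 and 52.7% in wild type 2. Knockout 1, the longest list, was thus the one that most often lacked a strong region, here as over all genes.

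Zbtb14, Zbtb26, Zbtb44 and Zbtb34 are described next because of their values, seen beforehand, and not by the rule for named genes. The coding peak of Zbtb14 (chr17:69387384-69389022) was absent in knockout 1 and stood at 92.9 in knockout 2 and at 94.4 and 99.1 in wild type 1 and 2. That of Zbtb26 (chr2:37435579-37436985) was likewise absent in knockout 1 and stood at 87.4 in knockout 2 and 90 and 90.2 in the wild-type libraries. Zbtb10, which represses genes of the Sp family in human cells, showed the same pattern: its coding region (chr3:9251050-9278310) was absent in knockout 1 and stood at 94.9 in knockout 2 and at 95.9 and 95.6 in the wild-type libraries. A short 5' untranslated peak of Zbtb10 was called in all 4 lists, at 45.1 and 15.9 in the knockout and 30.4 and 21.1 in the wild-type libraries. For these 3 genes the knockout libraries differed from each other, so no difference by genotype can be read.

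The coding region of Kbtbd2 (chr6:56778656-56780384) was called in 1 library of each genotype, at 97.4 in knockout 2 and 98.1 in wild type 1. Klhl26 had its only peak in knockout 2, at 96.5 with a fold of 340 (chr8:70450726-70452368). Zbtb44 (chr9:31053253-31054301) and Zbtb34 (chr2:33410590-33412263) also had strong regions in knockout 2 alone, at 99.1 and 96.2. A further region of Zbtb34 was called in all 4 lists, at 80.7 and 72.6 in the knockout and 76.5 and 79.8 in the wild-type libraries. None of the 4 strong regions of Kbtbd2, Klhl26, Zbtb44 and Zbtb34 was called in both libraries of a genotype.

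**Figure D4:**
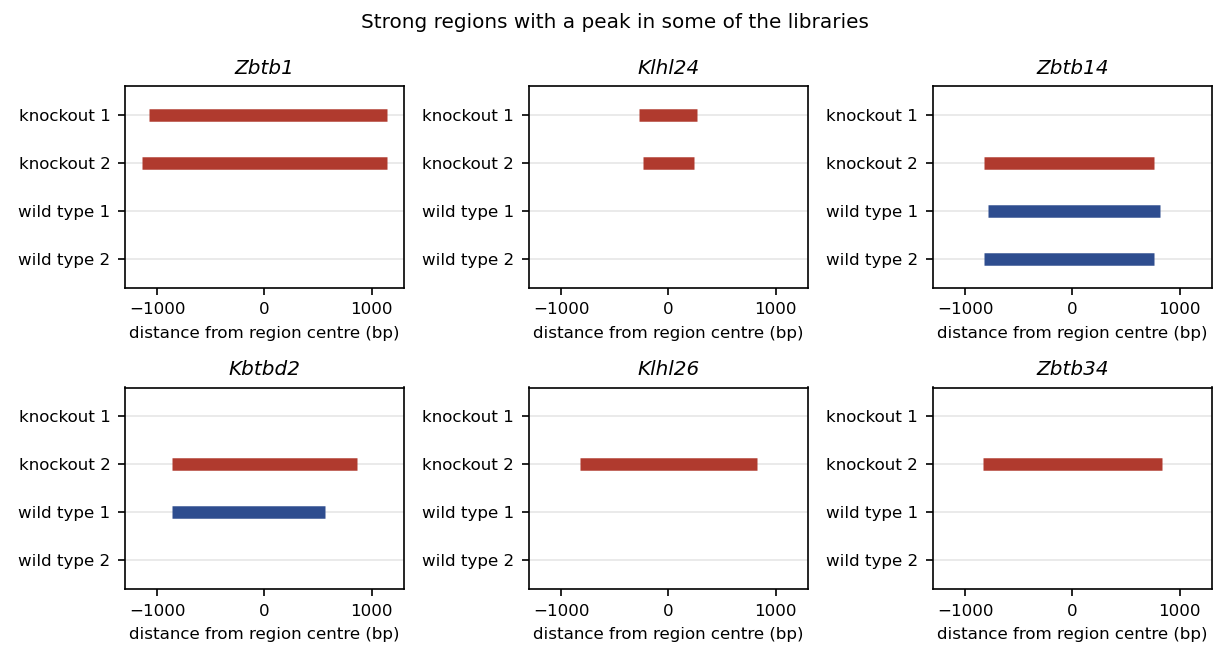
Extent of each called peak around the centre of its region (bp; bars in red for knockout and blue for wild-type libraries, empty rows where no peak was listed). Zbtb1 and the coding region of Klhl24 have peaks in both knockout libraries and neither wild-type library, Zbtb14 lacks one in knockout 1, and the regions of Kbtbd2, Klhl26 and Zbtb34 are called in 2, 1 and 1 libraries.

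The Klhl family was led by Klhl9, Klhl34, Klhl18 and Klhl2. Klhl9, a CUL3 adaptor for the mitotic kinase Aurora B, lay at 96.9 and 96.0 in the knockout and at 96.9 and 96.8 in the wild-type libraries (chr4:88720110-88722427, minus strand). A peak of Gm26566 on the opposite strand lay in the same region. Klhl34 lay at 89.5 and 88.8 in the knockout and 89.3 and 89.5 in the wild-type libraries, and Klhl18 at 86.8 and 85.3 in the knockout and 87.7 and 87.2 in the wild-type libraries. Klhl2, an adaptor for WNK kinases, lay at 80.7 and 76.1 in the knockout and 79.8 and 80.8 in the wild-type libraries. In each of these genes the percentiles of the genotypes lay within 5 points of each other.

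Klhl22, an adaptor that removes Plk1 from kinetochores, was called in all 4 libraries at 64.7 and 53.9 in the knockout and 55.1 and 67.6 in the wild-type libraries. It had a further exon region (chr16:17776402-17777389) in knockout 2 and wild type 2 only. Of the Klhl genes without a peak in every library, Klhl26 and Klhl7 were called above the median of their lists and the others below it.

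The Kbtbd family was led by Kbtbd11, Kbtbd7, Kbtbd6 and Kbtbd13. Kbtbd11 lay at 97.6 and 96.8 in the knockout and 97.3 and 96.9 in the wild-type libraries, and its region held peaks of Gm37844 on the opposite strand. Kbtbd7 and Kbtbd6, which in human cells act together with CUL3 on the exchange factor TIAM1, differed in rank. Kbtbd7 lay at 91.9 and 88.5 in the knockout and at 91.1 and 91.1 in the wild-type libraries, with Kbtbd6 at 77.8 and 64.7 in the knockout and 71.5 and 69.5 in the wild-type libraries. The weak peak at the start of Kbtbd7, whose first bases are given above, was called in knockout 2 only and stood apart from this main peak. The Kbtbd6 peak was listed 2 times in each library, with ends that differ slightly and the same p-value and fold, so 4 of the 487 peaks are repeats. Kbtbd13, mutated in a human muscle disorder, lay at 61.8 and 63.4 in the knockout and 50.4 and 50.9 in the wild-type libraries. The knockout values lay above the wild-type values, a separation that 2 libraries against 2 cannot test. Such separations ran both ways, as in Klhl18, where the wild-type values lay above the knockout values. The share of all genes with a separation either way was not computed.

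The Kctd family was led by Kctd18, Kctd3, Kctd2 and Kctd5. The strongest peak of Kctd18 lay in its 5' untranslated region over 2 exon blocks (chr1:58013643-58018057, minus strand), at 97.0 and 99.1 in the knockout and 99.4 and 99.1 in the wild-type libraries. The region also held a peak of Sgo2a on the opposite strand, so the gene that carries it is uncertain. The 3' untranslated peak of Kctd18 was at 70.6 and 68.4 in the knockout and 60.2 and 63.1 in the wild-type libraries. Kctd3, which binds a pacemaker channel, lay at 99.5 and 97.6 in the knockout and 99.4 and 97.8 in the wild-type libraries, in the 3' untranslated region. Kctd2 lay at 87.8 and 85.8 in the knockout and 84.5 and 86.1 in the wild-type libraries. Kctd5, a CUL3 adaptor for G protein subunits, lay at 83.9 and 77.3 in the knockout and 80.7 and 81.1 in the wild-type libraries.

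Kctd12, an auxiliary subunit of GABA-B receptors, had 3 regions, and all 3 held a peak of Gm26778 on the opposite strand. Its best peaks were at 59.9 and 44.0 in the knockout and 46.3 and 59.9 in the wild-type libraries. In all, 10 regions of 7 genes were shared with a gene outside the families: those of Kctd12, both regions of Zbtb9 (with Ggnbp1 on the same strand), and 1 region each of Kctd18, Kbtbd4, Kbtbd11, Klhl9 and Klhl21. Zbtb11 and Zbtb11os1 shared another, so 11 regions (7.28%) held peaks of more than 1 gene, beside 3.93% of all regions. For these the gene is uncertain, since no source used here says that the libraries kept the strand.

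The families differed in the part of the transcript that was marked. Over all BTB-family genes, the coding sequence held 47.0% ± 2.4 of peaks in the knockout and 48.7% ± 0.6 in the wild type (SD, n = 2 each), against 35.1% and 35.5% of all peaks. The 3' untranslated region held 29.6% ± 4.5 in the knockout and 32.4% ± 0.6 in the wild type (SD, n = 2 each), against 38.4% and 38.5% of all peaks. Among Zbtb peaks the coding share was 52.3% in the knockout and 52.7% in the wild type. Kctd peaks had the reverse make-up, with 61.1% in the 3' untranslated region in the knockout and 61.8% in the wild type, and 26.4% and 32.3% in the coding sequence. In Klhl and Kbtbd genes the coding sequence was the commonest class in every library, with Kbtbd resting on 8 to 11 peaks a library.

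Over all BTB-family genes, the coding and 3' untranslated shares and the number of peaks overlapped between the genotypes. The shares of the other classes did not, although both overlapped over all peaks. Exons with no finer class held 15.6% and 19.0% in knockout 1 and 2 and 14.8% and 14.7% in wild type 1 and 2, on 20 and 23 peaks in the knockout and 18 and 17 in the wild-type libraries. Over all peaks that share was 22.7% and 20.9% in the knockout and 21.2% in each wild-type library. The 5' untranslated share was 6.25% and 5.79% in knockout 1 and 2 and 4.92% and 3.45% in wild type 1 and 2. It rested on 8 and 7 peaks in the knockout and 6 and 4 in the wild-type libraries. In each library 3 of these peaks were of Zbtb9 or Kctd18, in regions whose gene is uncertain. Over all peaks the 5' untranslated share was 4.88% and 4.31% in the knockout and 4.64% and 4.8% in the wild-type libraries. Within families, the coding share did not overlap in Klhl peaks, at 41.7% and 47.1% in the knockout and 48.6% in each wild-type library on 15 to 17 peaks, nor in Kctd peaks, at 27.8% and 25% in the knockout and 31.2% and 33.3% in the wild-type libraries on 3 to 6 peaks. Over all peaks the coding share overlapped, at 33.7% and 36.5% in the knockout and 35.5% and 35.6% in the wild-type libraries. The Klhl 5' untranslated share rested on 2 and 1 peaks in the knockout and 0 in both wild-type libraries. Each knockout library had a Klhl42 peak among these, in a region where each wild-type list held 1 longer coding peak. The separations by genotype named here cannot pass a test of 2 libraries against 2. The knockout minus wild-type difference in the 3' untranslated share was -2.73 percentage points (exact permutation test, two-sided, p = 1, n = 2 each), and without knockout 2 it was 0.45. The number of BTB-family peaks was 124.5 ± 4.95 in the knockout and 119 ± 4.24 in the wild type (SD, n = 2 each), a difference of 5.5 (exact permutation test, two-sided, p = 0.667). The smallest p that this design allows is 0.333.

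**Figure D5:**
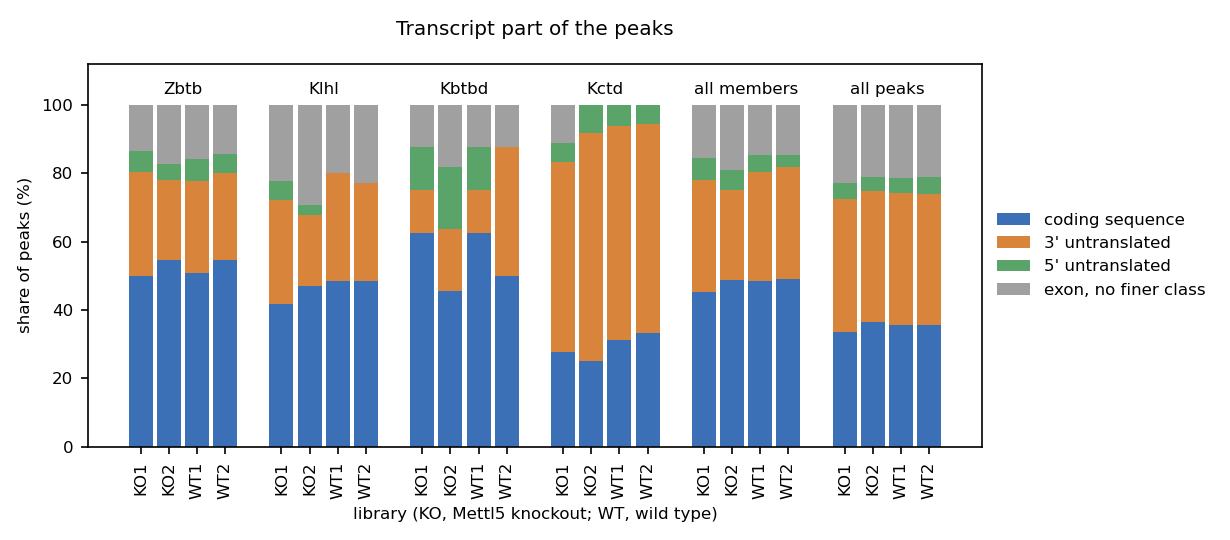
Share of peaks (%, stacked from 0) in the coding sequence, 3' untranslated region, 5' untranslated region or exons with no finer class, for each family, all BTB-family genes and all peaks, in knockout 1 and 2 (KO1, KO2) and wild type 1 and 2 (WT1, WT2). The coding part is larger in Zbtb (50% to 54.7%) than over all peaks (33.7% to 36.5%), and the 3' untranslated part is largest in Kctd (55.6% to 66.7%).

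Strength and position were joined. Coding peaks of the BTB-family genes had a median percentile of 74.8 and 65.8 in knockout 1 and 2 and 68.5 and 68.3 in wild type 1 and 2, against 56.0 to 57.3 for all coding peaks. Their 3' untranslated peaks had medians of 42.1 and 47.1 in the knockout and 43.4 and 44.5 in the wild-type libraries, against 48.2 to 49.1 for all such peaks. The coding peaks were also long, with medians of 616 to 685 bp against 419 to 448 bp for all coding peaks. Peaks in exons with no finer class, 17 to 23 a library, ranked high as well, with medians of 62.9 and 64.4 in the knockout and 69.0 and 74.1 in the wild-type libraries, against 44.8 to 45.3 for all such peaks.

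The best peaks varied in rank over the libraries. Of the 62 genes called in all 4 libraries, 37 (59.7%) had a range under 10 percentile points, beside 42.9% of all 5683 genes called in all 4 libraries, and 13 (21%) a range of 20 or more, beside 31.0%. A mean percentile of 90 or more was found in 14 of the 62. Genes near the top of the scale have less room to vary, and the shares of range were not matched for rank. Of the 80 regions called in all 4 libraries, 7 were put in more than 1 transcript class by the lists, as in Zbtb38 and Kbtbd11, where the ends of the peak decide whether it counts as coding or untranslated.

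Genes that work with the families were set beside them from lists drawn up by function. Of 25 genes of the CUL3 ligase core (the ring partner, the NEDD8 pathway and the COP9 signalosome), 17 had a peak, 14 in all 4 libraries, and 0 were called in both libraries of 1 genotype and neither of the other. Nedd8 was called in wild type 1 only and Dcun1d1 in wild type 2 only. Cul3 itself had no peak in the lists analysed. Dcun1d2, a NEDD8 ligase partner, lay at 97.3 and 96.7 in the knockout and at 97.3 and 97.3 in the wild-type libraries, while Cand1, which exchanges substrate receptors of cullins, lay at 93.9 and 90.7 in the knockout and 94.4 and 93.7 in the wild-type libraries. Of 37 BTB genes with other names, 31 had a peak and 21 had one in all 4 libraries. Keap1, the adaptor that holds Nfe2l2 for degradation, lay at 97.5 and 96.6 in the knockout and 97.0 and 97.1 in the wild-type libraries. Of 18 ligase substrates, 13 had a peak and 8 had one in all 4 libraries. Nfe2l2 was at 96.1 and 94.7 in the knockout and 95.1 and 95.3 in the wild-type libraries. As a background for these counts, 57.1% of the 9949 called genes were found in every library. That share is over genes with a peak, so it stands beside 14 of 17, 21 of 31 and 8 of 13. The background for both knockout libraries alone was 2.27%, and for both wild-type libraries alone 1.56%. Differences of these lists from the background were not tested. At such low shares, a count of 0 among the 17 called CUL3 core genes is no result.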

How the data were processed

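The authors deposited a separate peak list for each library (peaks called per sample). Per the file headers, a deposited peak carries exon blocks, gene, transcript class, p-value, the log10 of that p and of an adjusted p (used as a score), and a fold enrichment, a ratio to a background the lists do not name. Per the submitters' processing notes, the tools included HISAT2 and HOMER and the build was mm10, with no roles given; caller and input: not given in the sources used here. Depth per library is unknown.

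Peaks off the reference chromosomes were dropped, and peaks of any list whose exon blocks shared 1 bp or more, on either strand, formed a region. A p-value listed as 0 (66 BTB-family peaks) was ranked by its log10; 14 with no finite log10 were tied as the strongest. Of the BTB-family peaks, 3 had an adjusted p of 0.05 or more. Coordinates are 1-based. Single values per library were compared with exact permutation tests over libraries. The joining of peaks into regions was checked on simulated lists, copied from wild type 1 with small shifts and planted genotype-only regions. That check did not model peaks cut differently between lists and did not count false calls by genotype. The members and lists were chosen with earlier results of these data known, so nothing here is independent of them. The named genes were those called in both libraries of 1 genotype alone, the 4 strongest and the 2 with most regions of each family, up to 4 regions per direction that follow the genotype, genes in 1 library at a percentile of 75 or more, the 2 of widest spread, and 8 of known role; genes set beside them as neighbours, lists or strong partial regions were chosen after their values were seen. Transcript start windows were found in RefSeq for 72 of the 86 symbols, and those on chromosome 18 were not searched. Python 3.11.15, numpy 2.4.6, pandas 2.3.3, scipy 1.17.1 and matplotlib 3.10.9 were used. Alternatives were other overlap rules, shortened lists, an adjusted p under 0.05, other measures of strength, and leaving out each library. No genome of this build was used, so motif content of the regions was not analysed here.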

Additional observations from a re-analysis of the deposited data

How the results depend on the processing

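Of 71 values under alternatives, 53 kept their size, 17 moved and 1 reversed. The count of genes called in both wild-type libraries alone was 0 with the stronger 50% of each list and 0 without Zbtb8os and Zbtb11os1, an alternative chosen after seeing the data. The median best percentile was 81.3 when peaks were ranked by fold and 60.6 with the median peak of each gene. Neither was computed over all genes. Leaving out each library in turn gave 3 to 6 genes called in the knockout alone, 3 to 3 in the wild type alone, 7 to 23 regions in the knockout alone and 8 to 11 in the wild type alone, each genotype with a library left out being judged from the one that remained. The most knockout-only regions, 23, and genes, 6, came without knockout 2. The matching counts over all genes and regions were not computed for any of these settings. The counts are therefore no result about the BTB-family genes. The difference in 3' untranslated share ranged over the same settings from -5.92 to 0.45, and it was 0.45 without knockout 2. The cause was not tested. Genes called in all libraries numbered 63 to 64, regions 84 to 87. No paired analysis was possible because the wild-type labels carry no replicate numbers. Depth is unknown, so a missing peak may lie under the reach of a list.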

Other observations

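Among BTB genes with other names, 2 were called in both wild-type libraries alone: Enc1, at 99.4 and 14.8 in wild type 1 and 2, where the peaks lay in different regions, and Spopl, at 23.7 and 12.6. Among ligase substrates, 2 were called in both knockout libraries alone: Dvl3, at 38.4 and 18.6 in knockout 1 and 2, and Wnk4, at 20.7 and 18.6. These genes were named after their values were seen. Beside 2.27% and 1.56% of all genes called in the knockout or the wild type alone, the lists are too short to read a share from.

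Dcun1d3, of the NEDD8 pathway, repeated the pattern of a strong call in knockout 2 alone: its best percentiles were 25.9 and 96.9 in the knockout and 1.77 and 17.8 in the wild-type libraries. A 3' untranslated region of Kctd1 was called in wild type 1 alone at 86.5, while its coding region was called in all 4 lists, at 64.2 and 48.4 in the knockout and 51.3 and 50.9 in the wild-type libraries.

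Of 5 mesoderm and endoderm markers, 2 had a peak and 1 had one in all 4 libraries, and of 5 feeder fibroblast markers 2 had one in all 4. Of 5 neural markers, 4 had a peak and 2 had one in all 4. Beside 57.1% of all genes with a peak, these lists are too short to read a share from.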
